A study of Mus musculus with 3 samples.

Results

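The genes described here are 8 members of the complement system, read by symbol from the count tables of 3 mouse brain tumours: the C1q chains C1qa, C1qb and C1qc, the components C3 and C4b, the inhibitor Serping1, and the receptors C3ar1 and C5ar1. All 8 of the 8 were found, each as 1 entry of 27999. The tumours are numbered 1, 2 and 4 as in the labels and share 1 genotype: mutant Trp53 (R270H), the tumour suppressor p53, mutant Pdgfra (D842V), a growth factor receptor, and mutant H3f3a (K27M), a histone. They grew in mice on a B6.129(Cg) background, heterozygous for the (ACTB-tdTomato,-EGFP)Luo reporter allele at the ROSA locus. The mice received the MADR constructs, which place transgenes at that locus, by electroporation on postnatal day 1 or 2. Tumours 1, 2 and 4 were collected at 150, 106 and 149 days of age, and effects of a library, its animal and that animal's age cannot be told apart. GFP-positive cells were sorted from each and profiled with a droplet-based 3′ kit, 1 library per tumour. There is no untreated or normal group, so the comparisons below are between cell classes of the same tumours.

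Complement is a cascade of plasma and tissue proteins that marks surfaces for removal and calls in immune cells. C1q is the recognition part of C1 and starts the classical pathway, in which C1 cleaves C4 and C2 to form an enzyme that cleaves C3. Serping1 encodes C1 inhibitor, which blocks the proteases of C1, while the fragments C3a and C5a act through the receptors C3ar1 and C5ar1. In healthy brain, microglia are known as the main source of C1q.

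The 3 genes of the C1q chains lie side by side on chromosome 4 of GRCm38, the same build as mm10: C1qb at chr4:136880129-136886187, C1qc at chr4:136889804-136893065 and C1qa at chr4:136895917-136898803, all on the minus strand. C3 is at chr17:57203970-57228136, C4b at chr17:34728380-34743882, Serping1 at chr2:84765387-84775444, C3ar1 at chr6:122847138-122856161 and C5ar1 at chr7:16246743-16259540, also on the minus strand. All 8 are annotated as protein-coding. C4b has a near-identical neighbour, C4a, which is no entry of the count tables, so the C4b values are uncertain in how reads shared with C4a were counted.

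Promoter sequences from RefSeq (GRCm38.p6) were matched for 5 members, C1qb, C1qc, C3, C3ar1 and C5ar1. The 250 bases before the start site are shown for the 3 that hold the letters AGGAAGT, the core bound by ETS factors such as PU.1 of myeloid cells, or their reverse complement ACTTCCT. These 3 genes were among those high in myeloid cells below, and so were C3 and C3ar1, whose windows lack the letters. Capitals mark the match, and each sequence runs 5′ to 3′ on the minus strand, from chr4:136886201-136886450, chr4:136892915-136893164 and chr7:16259339-16259588. The start sites are those of RefSeq and differ from the gene positions above. By those positions the C1qc and C5ar1 windows lie partly inside the gene, and so do both C5ar1 matches.
C1qb: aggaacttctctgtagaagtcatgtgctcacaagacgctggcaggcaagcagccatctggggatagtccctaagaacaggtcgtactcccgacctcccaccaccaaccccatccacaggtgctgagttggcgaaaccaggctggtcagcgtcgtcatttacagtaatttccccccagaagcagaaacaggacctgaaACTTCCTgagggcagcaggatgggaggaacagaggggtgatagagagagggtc
C1qc: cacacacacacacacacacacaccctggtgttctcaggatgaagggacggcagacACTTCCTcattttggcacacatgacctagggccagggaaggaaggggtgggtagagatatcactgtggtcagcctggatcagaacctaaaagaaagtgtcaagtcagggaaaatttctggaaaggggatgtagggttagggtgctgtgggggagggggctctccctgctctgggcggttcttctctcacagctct
C5ar1: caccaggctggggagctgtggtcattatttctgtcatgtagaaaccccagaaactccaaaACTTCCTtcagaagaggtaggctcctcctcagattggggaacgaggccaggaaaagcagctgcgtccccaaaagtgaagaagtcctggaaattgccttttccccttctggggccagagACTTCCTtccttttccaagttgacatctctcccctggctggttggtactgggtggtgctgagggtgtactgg

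Of 32851 promoter windows of 300 bases in the same table (250 before the start and 50 after), 9.35% held this core on either strand. The windows of C3 and C3ar1 did not hold these letters. None of the 5 held the interferon-stimulated response element in the form GAAA, any 2 bases, GAAA (in 3.44% of windows) or TTCNNNGAA (gamma-activated site, in 8.30%), on either strand. TTGCNNAA, a letter pattern bound by CCAAT/enhancer binding proteins, was in the C3 window alone and in 10.8% of all windows. A match is a description of the letters and not a measured binding site.

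Of 3386, 1632 and 4624 barcodes in tumours 1, 2 and 4, 3361, 1548 and 4377 passed the filters, with median depths of 11908.5, 7570.5 and 9102.5 UMIs (unique molecular identifiers) per barcode. Libraries shared 6 to 20 barcodes, at most 0.674% of the smaller library. Clusters were named from marker lists without use of any complement gene. Progenitor-like cells carry markers of oligodendrocyte precursors (Pdgfra, Olig1, Sox10), and the interferon-high cells are the 25% of them with the highest share of UMIs in 51 interferon response genes. Progenitor-like cells outside that range numbered 2098, 179 and 2917, interferon-high 699, 60 and 973, oligodendrocyte-like 30, 444 and 66, and myeloid-like 168, 397 and 79 in tumours 1, 2 and 4. Astrocyte-like cells numbered 32 in tumour 1 and 24 in tumour 2, and no cluster of tumour 4 took that name. A further 334, 101 and 342 cells stayed unnamed, some of them with myelin genes among their leading genes.

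Levels are given as CPM, the UMIs of a gene relative to all UMIs of the summed class, with exact 95% Poisson intervals that cover counting error only. Differences between classes come from edgeR's quasi-likelihood test on the class sums with tumour as a block, adjusted over 12652 genes by Benjamini-Hochberg. The cells of all classes in a tumour share 1 animal and 1 library. The progenitor-like reference leaves out the interferon-high cells, while the other classes were not split by that score. The part of this in the differences was not tested.

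The C1q chains, which assemble into the recognition molecule of C1, were high in myeloid-like cells of every tumour. C1qa stood at 2241 CPM in the myeloid-like cells of tumour 1 (interval 2186 to 2297), 7330 in tumour 2 (7233 to 7429) and 3517 in tumour 4 (3394 to 3642). In progenitor-like cells it stood at 29.0, 219 and 5.35 CPM in tumours 1, 2 and 4. The ranges do not overlap: the lowest myeloid value was above the highest progenitor value, but the progenitor values themselves spanned tumours widely. C1qb stood at 2142, 5697 and 3701 CPM in myeloid-like cells against 23.5, 176 and 5.48 in progenitor-like cells, in the same order of tumours. C1qc stood at 1953, 4724 and 3558 CPM against 20.8, 127 and 4.17. For each chain tumour 2 was highest in both classes.

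The fitted differences between myeloid-like and progenitor-like cells were large for every chain. They were 7.61 ± 0.72 (log2 fold change ± SE) for C1qa, 7.72 ± 0.74 for C1qb and 8.04 ± 0.86 for C1qc, with edgeR adjusted p of 2.07e-06, 2.44e-06 and 6.24e-06, and each was higher in 3 of 3 tumours. In total 7 of the 8 members were higher in myeloid-like cells and none lower, where 14.3% of all genes tested were higher and 4.22% lower. The median over the 8 members was 7.66 and over all genes tested −0.06. The calls of the 3 chains, C3, C3ar1 and C5ar1 held in 15 of 15 alternative settings.

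Nearly every myeloid-like cell held transcripts of all C1q chains. All 3 chains had a UMI in 155 of 168 such cells in tumour 1 (92.3%, exact binomial interval 87.1% to 95.8%), 394 of 397 in tumour 2 (99.2%, 97.8% to 99.8%) and 79 of 79 in tumour 4 (100%, from 95.4%). The median cell had 90.5, 127 and 117 C1q UMIs. After thinning every cell to 2000 UMIs, 82.7%, 98.7% and 92.4% of myeloid-like cells still had a C1qa UMI, against 96.4%, 99.7% and 100% before.

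**Figure D1:**
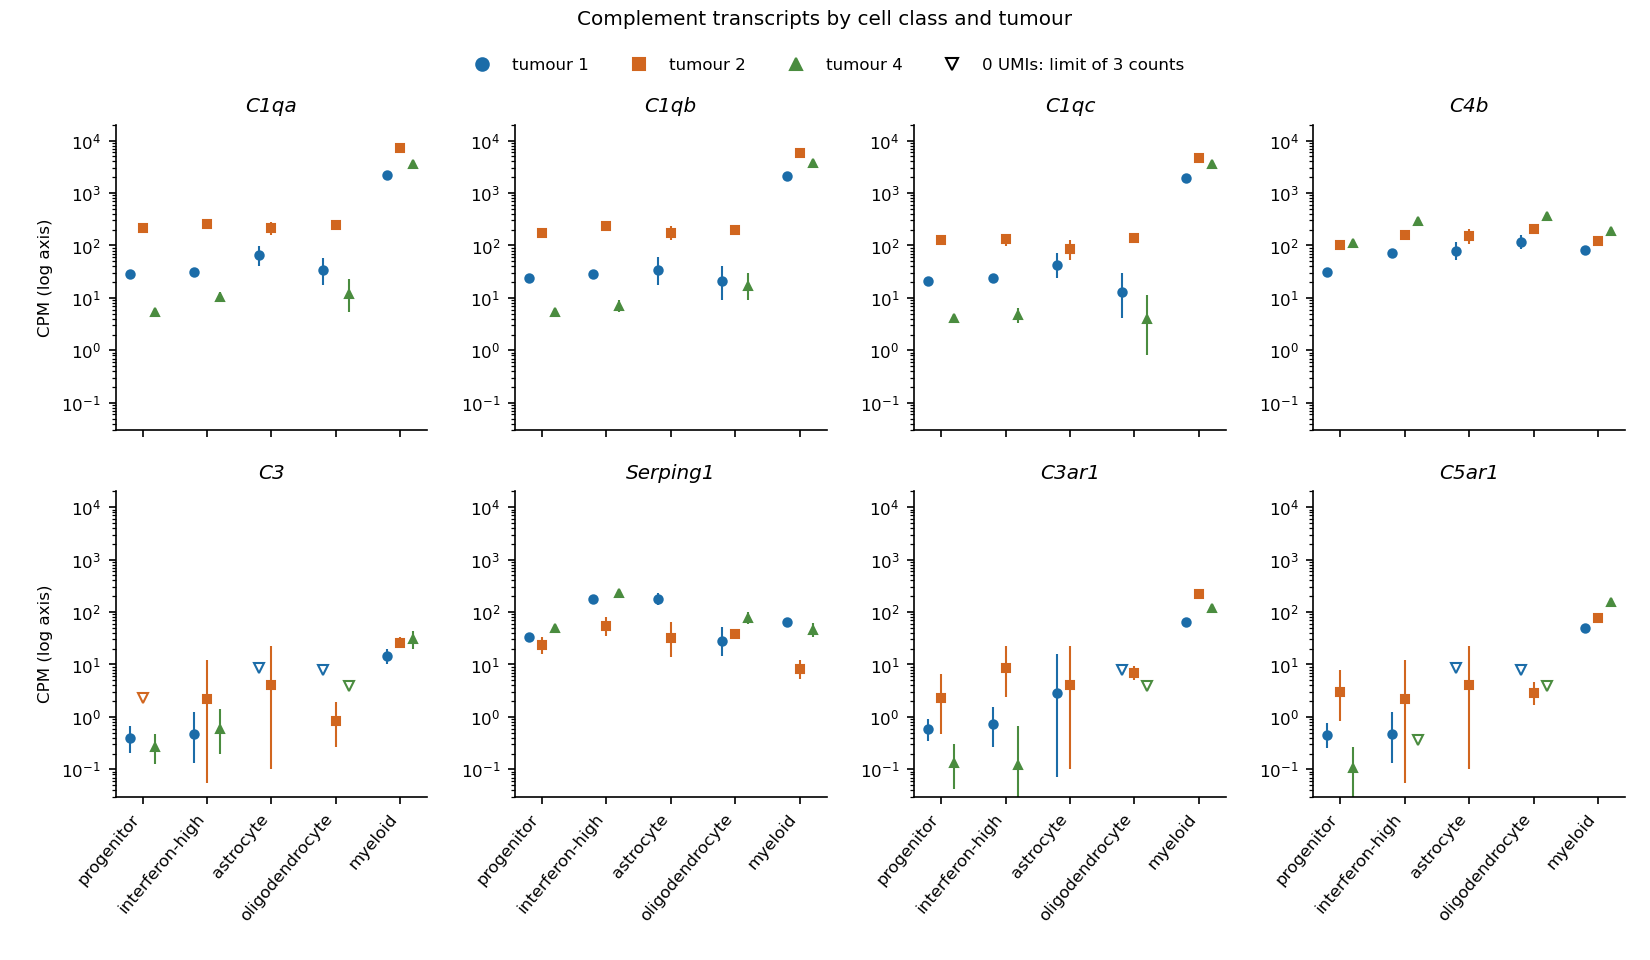
CPM on a log axis (points, exact 95% Poisson intervals) of the 8 genes in 5 cell classes of tumours 1, 2 and 4; open triangles mark classes with 0 UMIs, drawn at the limit of 3 counts. The C1q chains, C3, C3ar1 and C5ar1 are highest in myeloid-like cells of every tumour, whereas C4b and Serping1 are not.

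C1q UMIs were also read in the other classes. At least 1 C1q UMI was found in 58.2%, 89.4% and 12.3% of progenitor-like cells of tumours 1, 2 and 4. The median such cell had 1, 3 and 0 C1q UMIs, and 0.238%, 5.59% and 0.137% had 10 or more. This order of tumours was that of the share of myeloid-like cells, 5.00%, 25.6% and 1.80% of all cells.

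As a share of the same tumour's myeloid level, the C1q chains in progenitor-like cells lay within the range of 15 other myeloid marker genes (Tyrobp, Ctss, Csf1r and others). In tumour 1 the chains stood at 1.07% to 1.29% of their myeloid level and the 15 markers at 0.345% to 1.72%, with a median of 1.21%. In tumour 2 the chains stood at 2.68% to 3.09% and the markers at 1.10% to 4.69%, median 2.68%. In tumour 4 the values were 0.12% to 0.15% and 0.0884% to 0.816%, median 0.173%. C1q thus stood among the myeloid markers in these cells and not above them. In tumour 2 the 20 cells of a T- or NK-like cluster, a lineage that does not transcribe C1q, stood at 434 CPM for C1qa, against 219 in progenitor-like cells. That sum rests on few cells: 1 of them held 133 C1q UMIs, 3 held 10 or more, and the median was 2.5 against 3 in progenitor-like cells. A C1qa UMI was found in 10 of those 20 cells and in 69.3% of progenitor-like cells, at median depths of 5447 and 6351 UMIs. At 2000 UMIs per cell the shares were 35.0% and 31.3%. Myeloid markers summed to 3755 CPM in the T- or NK-like cells and 535 in progenitor-like cells, with Ptprc and Cd53 of that list also known in lymphocytes. Tumours 1 and 4 held no T- or NK-like cluster for this comparison. Whether neural classes transcribe C1q at these levels was not tested.

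**Figure D2:**
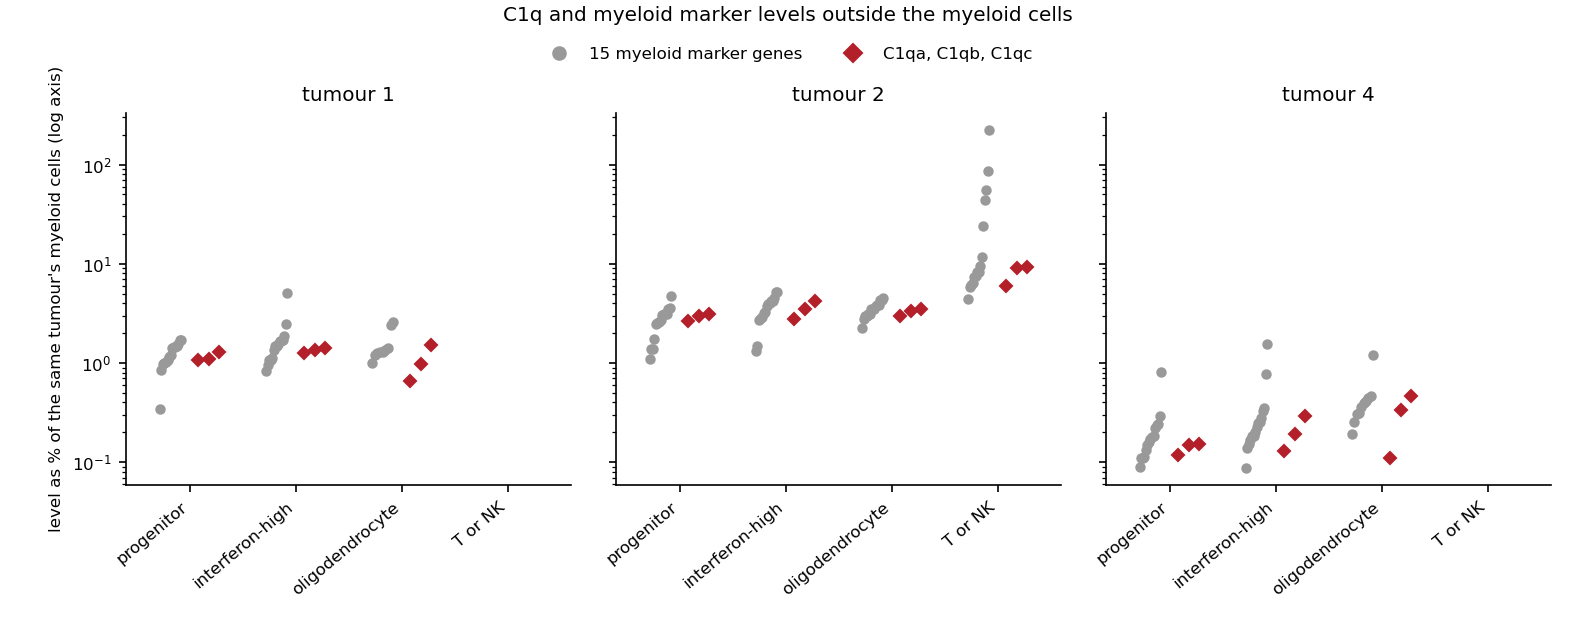
Level of the C1q chains (red) and of 15 myeloid marker genes (grey) in 4 other classes, as a percent of the level in the same tumour's myeloid-like cells, on a log axis; genes at 0 UMIs are not drawn, and a T- or NK-like cluster was found in tumour 2 alone. In progenitor-like cells the C1q chains stand at 1.07% to 1.29% in tumour 1, 2.68% to 3.09% in tumour 2 and 0.12% to 0.15% in tumour 4, among the markers.

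No C1q chain passed the test in interferon-high, oligodendrocyte-like or astrocyte-like cells against progenitor-like cells. The fitted differences were 0.16 to 0.37 in interferon-high, 0.16 to 0.46 in oligodendrocyte-like and 0.37 to 0.74 in astrocyte-like cells, with SEs of 0.54 to 0.85 and edgeR adjusted p of 0.682 to 0.9997. C1qa, for example, stood at 31.4, 257 and 10.3 CPM in interferon-high cells of tumours 1, 2 and 4, at 33.8, 243 and 11.9 in oligodendrocyte-like cells, and at 65.5 and 215 in the astrocyte-like cells of tumours 1 and 2. Among the 4 classes found in all 3 tumours the order for C1qa by mean was myeloid-like (4363 ± 2648, SD, n = 3), interferon-high (99.6 ± 137, n = 3), oligodendrocyte-like (96.3 ± 128, n = 3) and progenitor-like (84.4 ± 117, n = 3). Only the first step of that order was larger than the spread over tumours. The remaining neighbours did not differ beyond it.

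The anaphylatoxin receptors followed the same division at lower levels. C3ar1, the receptor of C3a, stood at 64.7 (55.6 to 74.8), 225 (208 to 242) and 119 (97.5 to 144) CPM in myeloid-like cells of tumours 1, 2 and 4, and at 0.59, 2.29 and 0.13 in progenitor-like cells. C5ar1, the receptor of C5a, stood at 48.6 (40.8 to 57.5), 77.5 (67.7 to 88.2) and 156 (131 to 184) CPM in myeloid-like cells, and at 0.46, 3.05 and 0.10 in progenitor-like cells. Groups did not overlap for either receptor. The progenitor values rest on 18, 3 and 5 UMIs of C3ar1 and on 14, 4 and 4 of C5ar1.

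The differences were 8.13 ± 0.61 for C3ar1 and 8.06 ± 0.78 for C5ar1 (edgeR adjusted p = 3.43e-07 and 2.66e-06, higher in 3 of 3 tumours). In the 444 oligodendrocyte-like cells of tumour 2, C3ar1 had 42 UMIs (7.005 CPM) and C5ar1 17 (2.84 CPM), and neither passed the test in that class. Neither had a UMI in the 30 and 66 such cells of tumours 1 and 4, which allows up to 7.80 and 3.96 CPM at the limit of 3 counts. Myeloid-like cells held 81.6% to 94.6% of each library's C3ar1 UMIs and 79.2% to 96.5% of its C5ar1 UMIs. Tumour order differed between the receptors, with tumour 2 highest for C3ar1 and tumour 4 for C5ar1; with 1 library per tumour this was not tested.

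C3, the component on which all pathways converge, was scarce and was highest in myeloid-like cells. It stood at 14.3 (10.2 to 19.5), 26.2 (20.7 to 32.7) and 30.3 (19.997 to 44.1) CPM there in tumours 1, 2 and 4, from 40, 77 and 27 UMIs. In progenitor-like cells it stood at 0.39 and 0.26 CPM in tumours 1 and 4 and had 0 UMIs in tumour 2, which allows up to 2.29 CPM. In tumour 2 the myeloid level was thus at least 11.4-fold higher. The fitted difference was 6.30 ± 0.49 (edgeR adjusted p = 4.11e-07, higher in 3 of 3 tumours). A C3 UMI was found in 14.9%, 14.9% and 17.7% of myeloid-like cells, so most of them showed none at this depth. Astrocyte-like cells, a class known to make C3 in some reactive states, held 0 C3 UMIs in tumour 1 (up to 8.55 CPM) and 1 in tumour 2. In tumour 2 the interval of that UMI reached 22.6 CPM, under the 26.2 of myeloid-like cells, and the intervals of the 2 classes overlap.

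**Figure D3:**
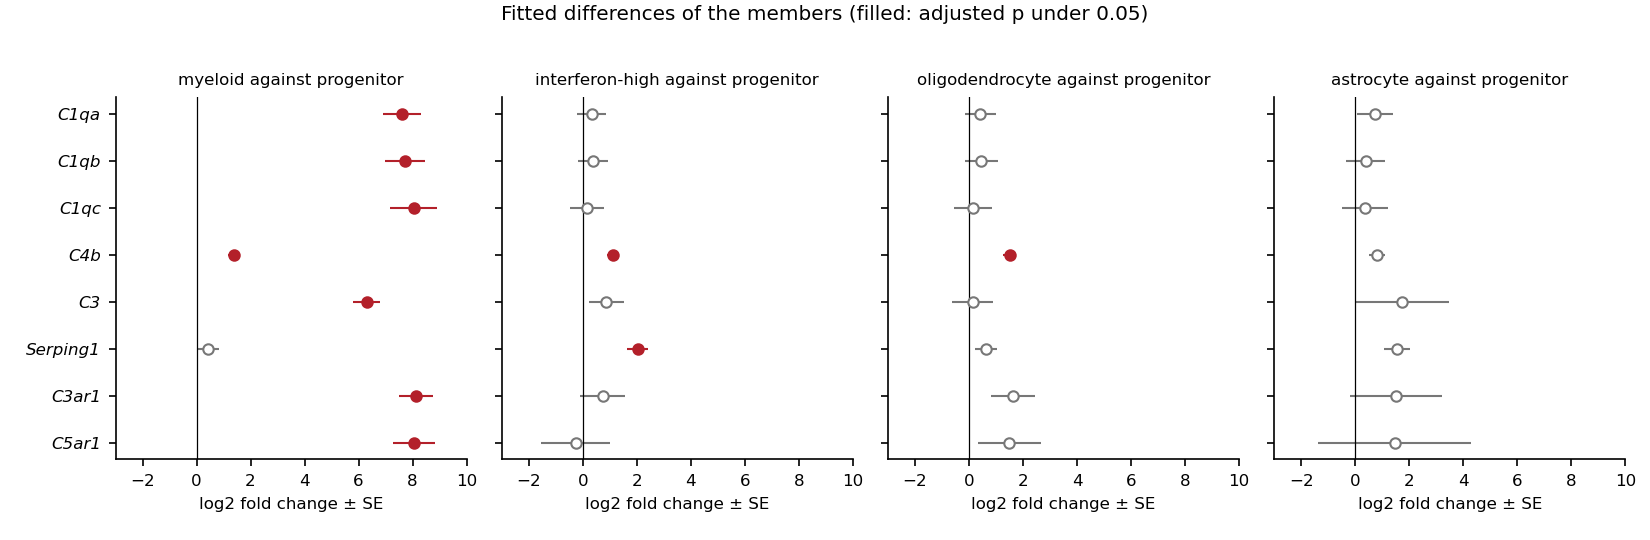
Log2 fold change ± SE of the 8 genes in 4 classes against progenitor-like cells; filled points have an adjusted p under 0.05. Myeloid-like cells differ by 6.30 to 8.13 in 6 genes, and C4b and Serping1 are the members called among interferon-high or oligodendrocyte-like cells.

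C4b, the component cleaved by C1, was read in every class and was highest in oligodendrocyte-like cells among the 5 classes of each tumour. It stood at 117 (85.3 to 157), 210 (198 to 222) and 359 (318 to 404) CPM in oligodendrocyte-like cells of tumours 1, 2 and 4, against 30.9 (29.0 to 33.0), 102 (85.6 to 121) and 110 (106 to 113) in progenitor-like cells. Within each tumour the ratio was 3.78, 2.05 and 3.27. Interferon-high cells, which are left out of this progenitor-like reference, stood at 73.2, 159 and 289 CPM. Across tumours the classes came close, with the lowest oligodendrocyte value at 117 and the highest progenitor value at 110. The fitted difference was 1.51 ± 0.24 (edgeR adjusted p = 0.00114, higher in 3 of 3 tumours). Single clusters of at least 20 cells could pass the oligodendrocyte-like level. Progenitor-like clusters of tumour 1, interferon-high cells included, ran from 17.3 to 149 CPM, and an unnamed cluster of tumour 2 stood at 228.

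C4b was the 1 member of 8 called in oligodendrocyte-like cells, where 7.28% of all genes tested were higher and 3.51% lower. The call ended in 5 of 16 alternative settings, among them without tumour 4 (1.43, adjusted p = 0.0626) and with the clusters of Leiden resolution 0.5 (0.91, 0.0977) and 2 (1.02, 0.125). At those resolutions C4b in the oligodendrocyte-like cells of tumour 4 stood at 177 and 159 CPM, below interferon-high (288 and 291) and myeloid-like cells (189 and 191), so the order of classes in that tumour turned. Within tumour 2 the 5 oligodendrocyte-like clusters of at least 20 cells ran from 22.3 CPM (14.2 to 33.5) in 63 cells to 323 (291 to 357) in 104 cells, with counting intervals that do not overlap. Those 104 cells were led by Csn1s2a, Gpd1 and Klk6, and a second cluster of 136 cells at 315 CPM by Nov, Csn2 and Csn3. Interferon response genes summed to 8535 CPM in the 104 cells and 14866 in the 136 cells. In the other oligodendrocyte-like clusters of that size they summed to 3015 to 6902 CPM. The part of either trait in the C4b range was not tested. In tumour 2, T- or NK-like cells held 2 C4b UMIs, 14.5 CPM (1.75 to 52.3).

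In interferon-high cells both C4b and Serping1 were higher than in the remaining progenitor-like cells. C4b stood at 73.2 (67.5 to 79.2), 159 (125 to 200) and 289 (278 to 301) CPM in tumours 1, 2 and 4, with ratios to progenitor-like cells of 2.37, 1.56 and 2.64. Serping1 stood at 179 (170 to 189), 54.5 (35.3 to 80.5) and 227 (217 to 238) CPM, against 33.9 (31.8 to 36.0), 23.6 (16.1 to 33.5) and 49.3 (47.1 to 51.5), with ratios of 5.30, 2.31 and 4.61. At Leiden resolutions 0.5 and 2 the interferon-high values of tumour 2 were 194 and 31.7 CPM for Serping1 and 205 and 104 for C4b. For Serping1 the 3 interferon-high values were all above the 3 progenitor values, while for C4b the classes overlap across tumours.

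The fitted differences were 1.12 ± 0.24 for C4b (edgeR adjusted p = 0.0458) and 2.04 ± 0.40 for Serping1 (adjusted p = 0.0277), both higher in 3 of 3 tumours. They were 2 of 8 members, where 0.814% of all genes tested were higher and 0.0237% lower. The call of C4b ended in 10 of 17 alternative settings and that of Serping1 in 4 of 17, while the difference stayed positive in all of them (0.94 to 1.33 and 1.82 to 2.38). Leaving out tumour 1 gave adjusted p of 0.938 and 0.278, and leaving out tumour 4 gave 1 and 0.8002. A fit of these 2 classes alone gave 4.77e-08 and 1.93e-15.

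The share of cells with a UMI moved the same way after thinning to 2000 UMIs per cell. Serping1 was found in 28.2%, 11.7% and 31.4% of interferon-high cells of tumours 1, 2 and 4 and in 6.24%, 5.59% and 8.84% of progenitor-like cells. Before thinning these were 68.5%, 28.3% and 67.2% against 31.6%, 15.1% and 33.9%. C4b was found after thinning in 12.9%, 23.3% and 40.9% against 5.96%, 15.1% and 19.6%. In tumour 2 the intervals of both genes overlap between the classes.

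The interferon-high class is a range of a score and not a separate cell type, and 224, 19 and 409 cells lay within 10% of its limit in tumours 1, 2 and 4. The score was therefore also split into 5 bins of equal cell number. Serping1 went from 12.05 CPM in the lowest bin of tumour 1 to 207 in the highest, and from 13.003 to 253 in tumour 4, higher at each of 4 steps. In tumour 2, with 47 or 48 cells a bin, it went from 27.8 to 54.3 CPM and 3 of 4 steps were upward. There the intervals of the lowest and highest bins overlap (13.4 to 51.2 and 32.2 to 85.9). Over the same bins of tumour 2, summed myeloid markers went from 412 to 785 CPM. C4b went from 17.2 to 76.3 CPM in tumour 1 and from 36.9 to 303 in tumour 4, at each of 4 steps, and from 66.8 to 190 in tumour 2 with 2 of 4 steps upward. No member is in the score.

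Depth and mitochondrial share moved with the score. Interferon-high cells had median depths of 10459, 5585.5 and 6971 UMIs against 12378.5, 6351 and 10743 in progenitor-like cells, and median mitochondrial shares of 5.20%, 11.7% and 7.31% against 4.55%, 7.74% and 4.92%. Summed myeloid marker levels were 157, 693 and 31.6 CPM against 124, 535 and 24.0. Medians over cells for astrocyte markers were 1.95, 12.01 and 2.30 UMIs per 10000 against 1.89, 9.64 and 1.81. The part of these in the result was not tested, except that with cells of at most 10% mitochondrial UMIs the differences were 0.94 for C4b (adjusted p = 0.434) and 2.38 for Serping1 (0.00518), and without cells holding at least 3 myeloid markers 1.18 (0.0552) and 2.12 (0.0147).

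**Figure D4:**
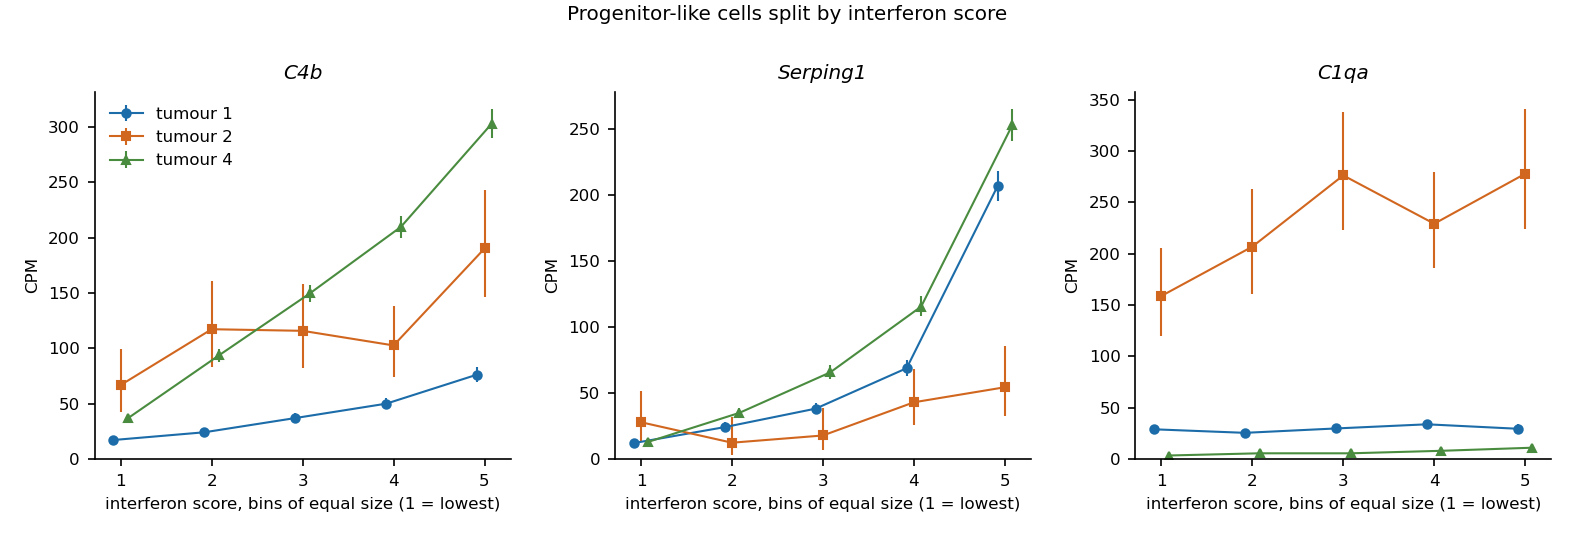
CPM (points, exact 95% Poisson intervals) of C4b, Serping1 and C1qa in 5 bins of the interferon score among progenitor-like and interferon-high cells of tumours 1, 2 and 4. Serping1 reaches 207 and 253 CPM in the highest bin of tumours 1 and 4, and C1qa goes from 28.9 in the lowest bin to 29.4 in the highest for tumour 1, from 159 to 278 for tumour 2, from 3.41 to 10.996 for tumour 4.

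In myeloid-like cells C4b was moderately higher than in progenitor-like cells and Serping1 did not pass the test. C4b stood at 82.9 (72.6 to 94.3), 124 (112 to 137) and 189 (161 to 220) CPM in myeloid-like cells of tumours 1, 2 and 4, a difference of 1.39 ± 0.24 (edgeR adjusted p = 0.000636, higher in 3 of 3 tumours). The CPM ratios of C4b to progenitor-like cells were 2.68, 1.21 and 1.72, and in tumour 2 the intervals of the 2 classes overlap. Serping1 stood at 64.7, 8.15 and 46.1 CPM, a difference of 0.44 ± 0.40 (adjusted p = 0.480), higher in 1 of 3 tumours. Its CPM ratios were 1.91, 0.345 and 0.936. Fitted differences rest on TMM-scaled sums, so they need not match CPM ratios. The C4b call ended in 1 of 15 alternative settings, the fit without the tumour block (1.31, 0.252). Progenitor markers summed to 1503 and 1591 CPM in the myeloid-like cells of tumours 1 and 4, against 2579 and 3126 in progenitor-like cells, and to 147 against 3610 in tumour 2. The part of those UMIs in the C4b and Serping1 levels of myeloid-like cells was not tested.

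In astrocyte-like cells of tumours 1 and 2 no member passed edgeR's test, where 1.03% of all genes tested were higher and 0.253% lower. At an unadjusted p under 0.05 there were 2, C4b and Serping1, and DESeq2 likewise called 0 after adjustment. The share of all genes at that unadjusted limit was not taken. Serping1 stood at 179 (138 to 230) and 32.4 (14.0 to 63.8) CPM, a difference of 1.55 ± 0.49 (adjusted p = 0.162), called in 4 of 15 alternative settings. C4b stood at 79.8 (53.0 to 115) and 150 (106 to 207) CPM, a difference of 0.82 ± 0.29 (adjusted p = 0.223). The Serping1 intervals of these 32 and 24 cells do not overlap, and the tumours were not tested against each other.

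Among the 4 classes found in all 3 tumours, the order for C4b by mean was oligodendrocyte-like (229 ± 122, SD, n = 3), interferon-high (174 ± 109), myeloid-like (132 ± 53.4) and progenitor-like (80.9 ± 43.4 CPM). Each step was smaller than the SD over tumours of its higher class. Within tumours, oligodendrocyte-like cells stood above interferon-high cells in 3 of 3, a difference that was not tested, while the order of interferon-high and myeloid-like cells varied. For Serping1 the order was interferon-high (154 ± 89.2), oligodendrocyte-like (48.2 ± 26.1), myeloid-like (39.6 ± 28.8) and progenitor-like (35.6 ± 12.9 CPM). Interferon-high cells were the highest of these 4 in 3 of 3 tumours, and the order of the other classes varied between tumours. Astrocyte-like cells, found in 2 tumours, are left out of these orders.

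Within myeloid-like cells, those with more UMIs of macrophage or monocyte genes (Lyz2, Ms4a7, Ccr2 and others) were set against those with more of microglia genes (Tmem119, P2ry12 and others). No member passed edgeR's test over 7379 genes, where 0.623% of genes were higher and 0.325% lower. At an unadjusted p under 0.05 there were 5 members by edgeR and 1 by DESeq2, which called 0 after adjustment. The share of all genes at that unadjusted limit was not taken, so these counts have no background. C1qc stood at 3470, 5012 and 3713 CPM in microglia-leaning cells of tumours 1, 2 and 4 and at 1723, 3763 and 3231 in macrophage-leaning cells, lower in 3 of 3 tumours (−0.53 ± 0.14, edgeR adjusted p = 0.152). C1qa stood at 4423, 7728 and 3392 against 1910, 6051 and 4275 CPM, lower in 2 of 3 tumours (−0.40 ± 0.21, adjusted p = 0.719).

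Without tumour 4, which had 18 macrophage-leaning cells, the differences were −0.71 for C1qc and −0.78 for C1qa (adjusted p = 0.000244 and 5.83e-05). Without tumour 1 they were −0.29 and 0.0043 (adjusted p = 0.270 and 0.999). C3 was the opposite, at 2.68, 24.4 and 23.7 CPM in microglia-leaning and 16.1, 30.8 and 55.5 in macrophage-leaning cells, higher in 3 of 3 tumours (0.85 ± 0.37, adjusted p = 0.572). The cluster of tumour 2 led by the antigen presentation genes H2-Aa, H2-Ab1 and Cd74 had the lowest C1qc of its myeloid-like clusters, 2418 CPM in 34 cells.

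Of 50 other complement genes listed, 49 were measured, 18 passed the filter on low counts and 15 stayed below 1 CPM in every class and tumour. None of the 7 genes of the terminal pathway (C5 to C9) could be tested. In myeloid-like cells 7 of the 18 were higher than in progenitor-like cells and none lower by edgeR, among them the receptor subunits Itgam, Itgax and Itgb2, the proteases C2 and Cfb and the collectin Colec12. DESeq2 called 7 higher and 1 lower. Of all genes tested by edgeR, 14.3% were higher and 4.22% lower in this comparison. The median difference over the 18 was 0.71. Itgam, the alpha chain of complement receptor 3, stood at 42.5, 137 and 143 CPM in myeloid-like cells of tumours 1, 2 and 4 (8.46 ± 0.57, edgeR adjusted p = 1.71e-07). Cfb, the protease of the alternative pathway, stood at 25.02, 29.2 and 8.99 (5.85 ± 0.50, 8.58e-07).

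C2, which pairs with cleaved C4, was less restricted. It stood at 15.7, 46.9 and 22.5 CPM in myeloid-like cells and at 5.40, 11.4 and 15.2 in progenitor-like cells (2.05 ± 0.55, edgeR adjusted p = 0.0171). In interferon-high cells it stood at 23.4, 21.8 and 56.5 CPM and in astrocyte-like cells at 59.8 and 48.6 CPM in tumours 1 and 2. In interferon-high cells edgeR called 0 of the 18 genes, where 0.814% of all genes tested were higher and 0.0237% lower. At an unadjusted p under 0.05 there were 4, with the share of all genes at that limit not taken. DESeq2 called 1 higher, C1ra, a protease of C1 (1.71 ± 0.44, DESeq2 adjusted p = 0.0123). Colec12 is a scavenger receptor with a collectin domain and stood at 12.2, 5.44 and 20.2 CPM in myeloid-like cells (6.83 ± 0.72, adjusted p = 5.79e-06).

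Among the regulators, Clu (clusterin, which binds terminal complexes) was highest in astrocyte-like cells and Cd59a (which blocks the membrane attack complex) in astrocyte-like and oligodendrocyte-like cells. Clu stood at 393 and 980 CPM in astrocyte-like cells of tumours 1 and 2 against 45.0 and 84.6 in progenitor-like cells (3.22 ± 0.34, edgeR adjusted p = 0.000928, higher in 2 of 2 tumours). It was lower in oligodendrocyte-like cells, at 33.8, 21.8 and 27.7 CPM (−1.24 ± 0.33, adjusted p = 0.0267, 3 of 3). Cd59a stood at 23.4, 39.5 and 7.92 CPM in oligodendrocyte-like cells against 12.6, 7.62 and 1.81 (1.77 ± 0.39, adjusted p = 0.011, 3 of 3). In astrocyte-like cells of tumours 1 and 2 it stood at 34.2 and 32.4 CPM. That difference did not pass the test (1.54 ± 0.50, edgeR adjusted p = 0.172). Cfb was also called higher in oligodendrocyte-like cells (3.13 ± 0.63, 0.00587, higher in 2 of 3 tumours), from 0, 66 and 3 UMIs. Of the 18 genes, 2 were higher and 1 lower in oligodendrocyte-like cells, where 7.28% of all genes tested were higher and 3.51% lower. In astrocyte-like cells 1 of the 18 was higher, where 1.03% of all genes tested were higher and 0.253% lower. Counts this small cannot be told from the shares over all genes.

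Of the remaining genes at 20 CPM or more, C1qbp, a mitochondrial protein named for binding C1q, stood at 67.6 to 306 CPM in every class. Cr1l (Crry, a membrane regulator of rodents) stood at 19.8 to 45.6 CPM over all classes and tumours. Csmd2, Csmd3 and Susd4, membrane proteins with complement control domains, were highest on average in progenitor-like cells, at 20.6 ± 25.7, 21.9 ± 10.4 and 17.3 ± 7.04 CPM (SD, n = 3). Within tumours that order did not always hold. Progenitor-like cells were the highest class for Csmd2 and Csmd3 in tumour 2 alone, and for Susd4 in tumours 1 and 4. Csmd2 in tumour 1, for example, stood at 11.6 CPM in progenitor-like and 25.6 in astrocyte-like cells. EdgeR called none of these 5 in any of the 4 class comparisons, and DESeq2 called 1, Susd4, lower in myeloid-like cells (−1.64 ± 0.64, adjusted p = 0.0483, against −1.49 ± 0.53 and 0.0693 by edgeR). Itgam was the 1 listed gene lower in macrophage-leaning cells (−1.67 ± 0.27, edgeR adjusted p = 0.00944, 3 of 3 tumours).

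**Figure D5:**
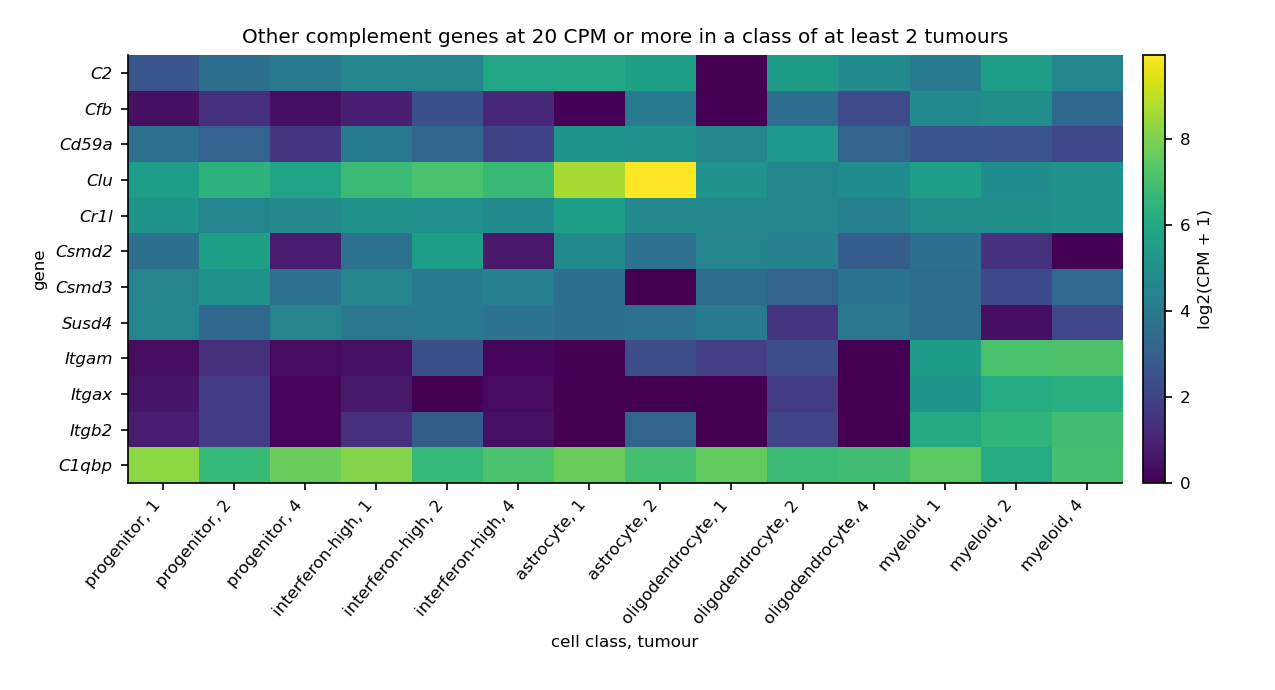
Log2(CPM + 1) of further complement genes with at least 20 CPM in a class of at least 2 tumours, for each class and tumour. Itgam, Itgax and Itgb2 are high in the 3 myeloid-like columns, Clu in the 2 astrocyte-like columns, and Cr1l has similar colours throughout.

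As a description of likeness, Pearson's r of log2(CPM + 1) was taken over the 14 class sums against 9760 genes. These sums share libraries and cell classes, so r is high for any gene restricted to 1 class. Nearest to C1qa were C1qb (0.994), Ctss (0.994), C1qc (0.992), Ccl3 (0.9895) and Ccl4 (0.989). C1qb was nearest to C1qa, Tyrobp, Ctss, Aif1 and C1qc (0.994 to 0.988), and C1qc to Ctss, C1qa, C1qb, Ccl4 and Fcer1g (0.994 to 0.986). Nearest to C3ar1 were Blnk, Il1rn, Fermt3, Cx3cr1 and Csf1r (0.993 to 0.986), and to C5ar1 Csf2rb, Cd84, Cd86, Clec5a and Lair1 (0.991 to 0.9847). For C3 they were Pilra, Smagp, Arl11, Cyth4 and Itgb2 (0.987 to 0.975).

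Values for C4b and Serping1 were lower. The nearest to Serping1 were Parp11 (0.898), Creld2, Igtp, Insl6 and S100a11 (0.869), of which Igtp is in the interferon list. For C4b they were Chmp4b (0.873), Dync1h1, Rab21, Mtmr10 and Wnk1 (0.843).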

How the data were processed

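Per the labels' protocols, single-cell 3′ libraries (version 2 chemistry) were made from sorted GFP-positive cells of 3 tumours. The submitters' processing notes name Cell Ranger 1.3.0, STAR 2.5.1 and the build mm10. How the authors chose barcodes as cells was not given in those notes. The values used are the deposited raw UMI counts of each gene in each barcode, and the normalised values were not used. Total depths were 47120617, 15231673 and 53551127 UMIs in tumours 1, 2 and 4.

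Cells were required to have 500 or more genes and no more than 20% of UMIs from mitochondrial genes. Scrublet marked 0, 7 and 0 cells as doublets, under 0.5% in each tumour, which was treated as a failed call, and these cells stayed in. Each tumour was clustered alone (scanpy 1.11.5, 2000 variable genes without complement genes, 30 components, 15 neighbours, Leiden resolution 1). A cluster took the class whose mean log2 marker level led by at least 2 over its 10th percentile and by 0.25 over the next class, with at least 3 markers at 20 CPM and no other class ahead among its 10 leading genes; unnamed clusters of at least 50 cells were clustered once more. Dropping the erythroid list, the second round and the margin of 0.25 in place of 0.5 were chosen after marker levels and members' levels per cluster had been seen, before any differential test. That margin admits the 24 astrocyte-like cells of tumour 2 and the 30 oligodendrocyte-like cells of tumour 1.

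Counts were summed per class and tumour (at least 20 cells; 10 for myeloid subsets) and tested with edgeR 4.0.16 (TMM, filterByExpr, tumour as a block, quasi-likelihood F-test) in 1 fit of 14 sums; SE is the log2 fold change over the root of F. Sums pair by tumour because they come from the same animal. Classes of a tumour are separate cells of 1 library. The p-values rest on the scatter left after the tumour and class terms, pooled over the 5 classes and moderated over genes. They thus do not measure the spread of a single comparison over 3 animals, and astrocyte-like cells came from 2 animals. On simulated counts for interferon-high against progenitor (11716 genes), 48% of genes raised by 1 on the log2 scale and 98% of those raised by 2 were recovered, and 6% of calls were false. For astrocyte against progenitor 6% and 86% were recovered. The simulated counts had a fixed spread, no tumour differences and only well-counted genes changed, so recovery in the real data can be lower. DESeq2 1.42.0 and other settings are alternatives. The 8 members, the gene lists and the naming rule for other genes (all members; listed complement genes with 20 CPM in a class of at least 2 tumours or called in a comparison; the 5 nearest genes by r; some are not reported here) were chosen with earlier results of these data known.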

Additional observations from a re-analysis of the deposited data

How the results depend on the processing

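The calls of C1qa, C1qb, C1qc, C3, C3ar1 and C5ar1 in myeloid-like cells kept their direction and their side of the threshold in 15 of 15 alternatives. Counts of called genes were 2344 (myeloid-like), 106 (interferon-high), 162 (astrocyte-like), 1365 (oligodendrocyte-like) and 70 (macrophage- against microglia-leaning). Without the replicate block, which pairs sums of 1 tumour, they were 1135, 0, 1, 188 and 0. Leaving out 1 tumour at a time gave 1211 to 2416, 0 to 343, 0 to 393, 311 to 867 and 0 to 178. Fits of the 2 classes alone gave 1320, 1481, 823 and 812. Other counts that moved by over 1.5 times, in interferon-high, astrocyte-like, oligodendrocyte-like and subset order where given, were 170, 392 and 40 (DESeq2, no oligodendrocyte-like), 194, 404 and 176 (no filter on low counts, likewise), and 29, 271 and 430 (class by each cell's own marker UMIs, no subset). Oligodendrocyte-like counts were 439 and 561 at Leiden resolutions 0.5 and 2, and 856 with halved UMIs. Astrocyte-like counts were 96 (at most 10% mitochondrial UMIs, where the subset count was 111), 36 (without the highest Scrublet scores), 15 (halved UMIs), 90 (naming margin 0.5, chosen after seeing the data) and 70 (without cells holding myeloid UMIs). The cause was not tested. At resolution 0.5 no astrocyte-like class was found.

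Signs turned for members that passed no test. For interferon-high cells these were C1qa −0.13 (without cells holding myeloid UMIs), C1qb −0.0135 (halved UMIs), C1qc −0.0217 (highest 10% of the score), C3ar1 −0.16 and C5ar1 0.0915 (own marker UMIs) and C5ar1 0.0564 (resolution 2). For astrocyte-like cells C1qc gave −0.32 to 1.21 (leaving out 1 tumour) and −0.0064 (2 classes alone), and C1qb −0.54 (without myeloid UMIs). C3 there gave −4.48 to 3.20 (leaving out 1 tumour), −4.52 (own marker UMIs), −3.68 (at most 10% mitochondrial), −4.18 (margin 0.5) and −2.96 (without myeloid UMIs), C3ar1 −6.32 (halved) and −4.00 (without myeloid UMIs), and C5ar1 −3.90 to 2.87, −3.46, −3.82, −4.33 and −3.33 (leaving out 1 tumour, mitochondrial, halved, margin, without myeloid UMIs). For oligodendrocyte-like cells C1qc gave −0.0474 (DESeq2), −0.59 to 0.39 (leaving out 1 tumour) and −0.15 (2 classes alone), C3 −4.84 to 1.03 (leaving out 1 tumour), −0.34, −0.18 and −4.09 (resolutions 0.5 and 2, without myeloid UMIs), C3ar1 −4.87 to 2.44 and −5.24 (leaving out 1 tumour, without myeloid UMIs), and C5ar1 −4.64 to 2.40, −0.26 and −0.0657 (leaving out 1 tumour, 2 classes alone, own marker UMIs). Leaving out 1 tumour gave −0.0604 to 0.76 for Serping1 in myeloid-like cells and −0.78 to 0.0043 for C1qa between myeloid subsets, with the values nearest or past 0 without tumour 1. In the tested classes other than myeloid-like, C3, C3ar1 and C5ar1 rest on 0 to 42 UMIs per class of a tumour, which limits those signs.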
